A study of Mus musculus with 4 samples.

Results

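The mouse genes named Zfp600 to Zfp999 encode zinc finger proteins, and their N6-methyladenosine (m6A) peaks in the cerebral cortex are described here. Members were chosen by gene symbol alone, as every peak in the deposited table whose gene symbol is Zfp followed by a 3-digit number of 600 or more. The rule found 482 peaks in 123 genes, of 33977 peaks in 10415 genes in all. By the authors' classes, 318 of these peaks in 107 genes lay in coding sequence, 152 peaks in 66 genes lay in 3' UTRs and 12 peaks in 10 genes lay in 5' UTRs. The study set 2 groups of mice side by side: repetitive mild traumatic brain injury (rmTBI) with 2 libraries, and a sham procedure with 2 libraries. By its label, each library was made from total RNA of the cortex after pull-down with an antibody against m6A. No genotype, strain, age, injury protocol or time after injury is stated in the labels. The libraries carry the number 0 or 1 within each group. The labels do not explain these numbers, so whether libraries 0 and 1 are alike beyond the antibody label is not known. Whether the libraries numbered 0 served as a reference for those numbered 1 is not stated either. The labels also do not say whether the libraries came from separate mice. The p-values therefore cover only how much these libraries vary among themselves, and that variation may be technical.

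m6A is a methyl mark that the METTL3 and METTL14 complex writes on RNA, and it is known to be frequent in long internal exons and around stop codons. C2H2 zinc finger proteins bind DNA through arrays of repeated fingers, and in many of them the whole array is encoded in the long last coding exon. Many members of this family also carry a KRAB domain, which recruits the co-repressor Trim28 and the methyltransferase Setdb1 to silence retrotransposons and nearby genes. A count at a peak of an m6A pull-down rises both with the methylation of a transcript and with its abundance. These cannot be told apart here, since all libraries are labelled with the antibody and none as input. In bulk tissue, fewer cells of a type and less RNA per cell cannot be told apart either.

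The 4 libraries held 13753600 and 26888072 counts over all peaks in rmTBI libraries 0 and 1, and 14437317 and 26356562 counts in sham libraries 0 and 1. Zfp600 to Zfp999 took 0.479% and 0.563% of these counts in rmTBI libraries 0 and 1, and 0.483% and 0.551% in sham libraries 0 and 1. In both groups the share was higher in library 1. The median member peak had 43 and 117.5 counts in rmTBI libraries 0 and 1, and 49 and 110 counts in sham libraries 0 and 1. The median over all peaks was higher, at 98 and 214 counts in rmTBI libraries 0 and 1 and 108 and 209 counts in sham libraries 0 and 1. Marker lists of cell types were compared between the groups too. At an adjusted p under 0.05 in edgeR, 8 of the 28 tested thalamic peaks were called, in 4 genes and all lower in rmTBI. Of all peaks, 0.0868% were called. The oligodendrocyte, choroid plexus and ependymal, cortical neuron, microglial and astrocyte lists had 0 called peaks. Peaks of all 7 thalamic markers had lower fitted values in rmTBI, with a median log2 fold change of -2.77 and a summed level of 55.0 and 70.6 CPM (the count relative to the TMM-scaled library total) in rmTBI libraries 0 and 1, against 370 and 415 CPM in sham libraries 0 and 1. The 5 oligodendrocyte markers with a peak were lower too (median log2 -0.80), as were 3 of 4 choroid plexus and ependymal markers, 6 of 7 cortical neuron markers were higher (median log2 0.61), 5 of 6 microglial markers were higher (median log2 0.24) and 4 astrocyte markers had a median of -0.06. No peak of the 3 blood markers was analysed here. The part of these differences in the values below was not tested.

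The first comparison was of where the peaks lie. Zinc finger genes had peaks more often in coding sequence and less often in 3' UTRs than the rest of the table, and their coding peaks lay late in the gene. Coding peaks made up 66.0% of the member peaks and 3' UTR peaks 31.5%, against 50.2% and 39.8% of the peaks of all other genes. The 193 other Zfp genes in the table, named outside this number range, had similar shares, with 67.1% coding and 29.4% 3' UTR peaks. Counted by gene, 51 of the 123 member genes (41.5%) had peaks in coding sequence only and 11 (8.94%) in 3' UTRs only. Both classes were present in 53 genes (43.1%), and 8 (6.50%) had another combination, such as coding with 5' UTR peaks. All other genes had 27.7%, 26.9%, 29.7% and 15.7% in the same order. Peaks of a gene are not independent, and these shares are given as a description with no test.

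Of the 173 RefSeq symbols in the number range, 123 (71.1%) had a peak, against 42.6% of all 21900 RefSeq protein-coding genes. The median was 3 peaks per gene. Zfp638 and Zfp646 had most, with 15 peaks each, followed by Zfp608, Zfp609 and Zfp846 with 14, Zfp865 with 13 and Zfp831 with 12. Chromosome 7 held 116 of the peaks in 28 genes, chromosome 8 held 58 in 15 genes, chromosome 17 held 52 in 19 genes and chromosome 9 held 47 in 7 genes. Of the 123 genes, 58 lay within 100000 bases of another member.

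Peaks were called apart in rmTBI and in sham and stacked, so that a site can appear in the table as a pair of overlapping rows that share reads. The members comprised 238 rows of the rmTBI set and 244 of the sham set, which formed 320 clusters of overlapping rows (201 coding, 109 in 3' UTRs and 10 in 5' UTRs). Among coding rows, 227 (71.4%) overlapped a row of the other set, close to the 70.4% of coding rows of all other genes. Among 3' UTR rows, 88 (57.9%) did, against 67.2% of 3' UTR rows of all other genes and 70.8% of those of the other Zfp genes.

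Along the gene, the midpoints of member coding peaks had a median of 76.8% of the RefSeq gene span from the 5' end (quartiles 53.2% and 86.5%), against 64.7% (33.0% and 85.8%) for coding peaks of all other genes. Beyond 80% of the span lay 140 of the 318 member coding peaks (44.0%), against 33.6% of those of all other genes. The first 10% of the span held 2.83% of the member coding peaks, against 10.6% for all other genes. The 3' UTR peaks went the other way. Their median was 89.7% of the span for members, against 95.8% for all other genes, and 97 of the 142 with a position (68.3%) lay beyond 80%, against 85.6%. The distance from the peak to the annotated 3' end of the gene had a median of 3882 bases for member coding peaks and 2313 bases for member 3' UTR peaks, against 10172.5 bases and 1395 bases for all other genes. Coding peaks of the other Zfp genes had a median position of 75.7%, close to that of the members.

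**Figure D1:**
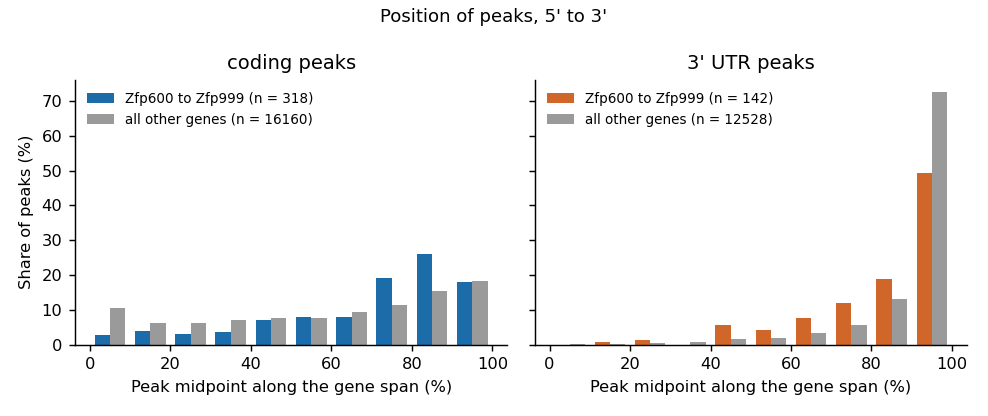
Share of peaks (%) by the position of the peak midpoint along the RefSeq gene span, from the 5' end at 0% to the 3' end at 100% in bins of 10%, for coding peaks (left) and 3' UTR peaks (right). Coloured bars are Zfp600 to Zfp999 and grey bars all other genes. Member coding peaks are most frequent between 80% and 90% of the span, where 26.1% of them lie against 15.3% for all other genes, while 49.3% of member 3' UTR peaks lie in the last bin against 72.5%.

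Member coding peaks were also shorter from start to end. Their median length was 328.5 bases (quartiles 211 and 569.8), against 453 bases (241 and 2582) in all other genes, and 16 of them (5.03%) exceeded 5000 bases against 16.5%. Length is taken on the genome, so that a long peak can include introns. The longest member peak was the coding peak of Zfp618, which ran over 114388 bases on chromosome 4 (62965602 to 63079989). In 3' UTRs the median was 271 bases in members and in all other genes alike.

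Per length, zinc finger peaks carried fewer counts than those of other genes. Among peaks under 1000 bases, the median level was 11.6 CPM per kilobase for member coding peaks and 9.52 for member 3' UTR peaks, against 21.2 and 18.9 for all other genes. The other Zfp genes had 12.6 and 11.8. The densest short member peak lay in Zfp644, which encodes a protein of the G9a and GLP histone methyltransferase complex. This coding peak of 182 bases on chromosome 5 (106637224 to 106637405) had 46.3 and 38.4 CPM in rmTBI libraries 0 and 1 and 50.2 and 40.5 CPM in sham libraries 0 and 1, or 241 CPM per kilobase. Short coding peaks of Zfp652, whose human counterpart is a transcriptional repressor, and of Zfp638 came next, with 146 and 136 CPM per kilobase.

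Zfp609, which in human and mouse cells binds Integrator and the cohesin loader and acts in cortical neurons, had the most-read peak, a span of 66435 bases on chromosome 9 (65731188 to 65797622) with 248 and 253 CPM in rmTBI libraries 0 and 1 and 237 and 255 CPM in sham libraries 0 and 1. The ranges of the groups overlapped. Zfp638, whose human counterpart silences unintegrated retroviral DNA, had 130 and 125 CPM in rmTBI libraries 0 and 1 and 123 and 124 CPM in sham libraries 0 and 1 at a coding peak of 2611 bases on chromosome 6 (83979156 to 83981766). Both rmTBI libraries lay above both sham libraries there by a small margin (log2 0.04, SE 0.22).

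Zfp652, Zfp697, Zfp644, Zfp608, Zfp827 and Zfp651 followed among coding peaks. Zfp608, the close relative of Zfp609, had 53.6 and 57.1 CPM in rmTBI libraries 0 and 1 and 53.7 and 55.7 CPM in sham libraries 0 and 1 at a coding peak of 2607 bases on chromosome 18 (54895301 to 54897907). Zfp622, whose human counterpart acts in the maturation of the large ribosomal subunit, was as even, with 33.1 and 34.0 CPM in rmTBI libraries 0 and 1 and 33.4 and 32.3 CPM in sham libraries 0 and 1 at its coding peak on chromosome 15 (25984902 to 25986934).

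The most-read 3' UTR peaks were those of Zfp799, Zfp830, Zfp821, Zfp970, Zfp933, Zfp871, Zfp605 and Zfp638. The Zfp799 peak of 10768 bases on chromosome 17 (32810318 to 32821085) runs past the annotated 3' end of the gene. It also lies on the strand opposite to the gene, and is among 8 such member peaks in 4 genes (Zfp646, Zfp703, Zfp799 and Zfp865). At Zfp865 on chromosome 7, peaks of 242 and 241 bases on opposite strands covered nearly the same stretch of the 3' UTR and had the same counts in every library, so that reads from opposite strands were not told apart there. Outside these, 2 member peaks overlapped a peak of another gene, at Zfp775 and Zfp865, and are uncertain.

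The series asks how injury alters m6A in the transcripts of the cortex. No Zfp600 to Zfp999 peak passed the test of rmTBI against sham in either direction with group as the only term in the model, and the medians of the family lay near 0. Of the 474 member peaks with enough counts to be tested (314 coding, 148 in 3' UTRs and 12 in 5' UTRs), 0 were called at an adjusted p under 0.05 by the quasi-likelihood test of edgeR, where 0.0868% of all 33415 peaks were called (0 higher and 29 lower). At an unadjusted p under 0.05 there were 7 member peaks (1.48%), all of them coding, against 2.84% of all peaks, and DESeq2 called 0 member peaks with 3 at an unadjusted p under 0.05. The smallest adjusted p among members was 1 in edgeR with group alone. With label number added as a block, edgeR called 19 member peaks of 7 genes (17 higher and 2 lower), where 10.6% of all peaks were called. The labels do not say that a number marks a shared animal or batch, so the fit with group alone is the main one here.

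The median log2 fold change of rmTBI over sham was 0.01 for member coding peaks (10th and 90th percentiles -0.34 and 0.44) and 0.05 for member 3' UTR peaks (-0.32 and 0.51), against 0.02 and 0.01 for coding and 3' UTR peaks of all other genes. Of the coding peaks 162 had a positive and 152 a negative value, and of the 3' UTR peaks 82 had a positive and 66 a negative value. Within the libraries numbered 0, the median difference between rmTBI and sham was -0.04 for coding and 0.01 for 3' UTR peaks, and within those numbered 1 it was 0.05 and 0.02.

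Both rmTBI libraries lay above both sham libraries at 61 member peaks (12.9%, 47 coding and 13 in 3' UTRs), where 12.3% of all peaks tested did so. They lay below both at 39 member peaks (8.23%, 32 coding and 7 in 3' UTRs), against 12.3% of all peaks. Over all classes, members above sham were thus near the background and members below it were fewer than the background. The classes differed in the share above sham. Among coding peaks, 14.97% of members were above sham and 10.19% below, against 11.92% and 11.44% for all other genes. Among 3' UTR peaks, 8.78% of members were above sham and 4.73% below, against 11.98% and 13.46% for all other genes. The shares by class were not tested. The largest of these separated differences are given next as values, since none passed the test with group as the only term.

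Zfp703, whose human counterpart is a transcriptional co-repressor studied in breast cancer, had the largest separated difference upward among peaks with 20 or more counts in each library. At its coding peak of 330 bases on chromosome 8 (26978842 to 26979171) there were 6.06 and 5.76 CPM in rmTBI libraries 0 and 1, against 2.42 and 3.88 CPM in sham libraries 0 and 1 (log2 0.88, SE 0.32). The counts were 80 and 160 in rmTBI, against 34 and 106 in sham. Another coding row of Zfp703, which overlaps this one on the same strand, had a log2 value of 0.86. The 5 tested rows of the gene were all positive, but the groups were separated in only 2 of them, in 1 cluster. At the coding row at 26979771 to 26980001, rmTBI minus sham was -1.45 within number 0 and 1.01 within number 1.

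Zfp831, on chromosome 2, had the most tested rows of any member whose rows all had the same sign. All 12 of its rows, in 7 clusters, had positive values of 0.20 to 0.64 on the log2 scale, and in 8 rows of 5 clusters both rmTBI libraries lay above both sham libraries. Its coding peak of 542 bases (174645032 to 174645573) had 20.8 and 29.7 CPM in rmTBI libraries 0 and 1, against 13.8 and 18.8 CPM in sham libraries 0 and 1 (log2 0.63, SE 0.30). Another coding cluster at 174646262 to 174646623 had 163 and 316 counts in rmTBI libraries 0 and 1, against 107 and 206 in sham libraries 0 and 1 (log2 0.64, SE 0.25). The 3' UTR cluster at 174705313 to 174706544 had 210 and 620 counts in rmTBI libraries 0 and 1, against 148 and 451 in sham libraries 0 and 1, and its scaled levels overlapped between the groups (log2 0.50, SE 0.32). Peaks of a transcript share its abundance and are not replicates.

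Zfp697, which has been studied in mouse skeletal muscle, had 7 of 8 rows positive. Its coding span of 44874 bases on chromosome 3 (98382570 to 98427443) had 104 and 89.9 CPM in rmTBI libraries 0 and 1, against 83.2 and 70.3 CPM in sham libraries 0 and 1 (log2 0.34, SE 0.24). Its 3' UTR peak at 98428726 to 98429085 had 91 and 361 counts in rmTBI libraries 0 and 1, against 70 and 235 in sham libraries 0 and 1 (log2 0.55, SE 0.39), and the scaled levels of the groups overlapped.

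Among the other upward differences, the coding peak of Zfp853 had 10.9 and 11.7 CPM in rmTBI libraries 0 and 1, against 6.35 and 8.41 CPM in sham libraries 0 and 1 (log2 0.61, SE 0.27). Zfp711, whose human counterpart is mutated in X-linked intellectual disability, had 2.73 and 2.59 CPM in rmTBI libraries 0 and 1, against 1.71 and 2.16 CPM in sham libraries 0 and 1 at a coding peak of 182 bases (log2 0.44, SE 0.37). The 3' UTR peak among the 6 highest was that of Zfp868, with 3.71 and 3.06 CPM in rmTBI libraries 0 and 1, against 2.14 and 2.78 CPM in sham libraries 0 and 1 (log2 0.44, SE 0.34).

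Zfp800 had neighbouring coding peaks that differed in opposite directions. The longer, of 2807 bases on chromosome 6 (28244346 to 28247152), had 7.28 and 6.94 CPM in rmTBI libraries 0 and 1, against 4.21 and 6.04 CPM in sham libraries 0 and 1 (log2 0.46, SE 0.29). The shorter, of 151 bases at 28243988 to 28244138, had 1.59 and 1.26 CPM in rmTBI libraries 0 and 1, against 2.28 and 3.11 CPM in sham libraries 0 and 1 (log2 -0.95, SE 0.42), from 21 and 35 counts in rmTBI against 32 and 85 in sham. The groups were separated at each of these peaks, in opposite directions, and neither difference passed the test.

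Downward, Zfp960 had 2.80 and 2.95 CPM in rmTBI libraries 0 and 1, against 5.06 and 4.43 CPM in sham libraries 0 and 1 at a coding peak of 332 bases on chromosome 17 (17088009 to 17088340; log2 -0.71, SE 0.30). The 3' UTR peak of Zfp975 had 1.52 and 0.935 CPM in rmTBI libraries 0 and 1, against 2.07 and 2.12 CPM in sham libraries 0 and 1 (log2 -0.81, SE 0.47). The 3' UTR peak of Zfp764 had a log2 value of -0.69, the coding peak of Zfp870 one of -0.65 and the coding peak of Zfp940 one of -0.57. These downward peaks were thinly read, with 20 to 37 counts in rmTBI library 0. Zfp975, Zfp623, Zfp629, Zfp882 and Zfp941 had 2 clusters each with both rmTBI libraries below both sham libraries, and so did Zfp638, which also had 1 cluster with both above. Zfp609, Zfp697, Zfp710, Zfp771, Zfp786, Zfp790, Zfp831, Zfp846, Zfp853 and Zfp956 had 2 or more clusters with both rmTBI libraries above both sham libraries. Zfp609 also had 1 cluster with both below. By peak, 12.9% of members lay above and 8.23% below, against 12.3% of all peaks in each direction. These gene lists are given without a share over all genes.

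**Figure D2:**
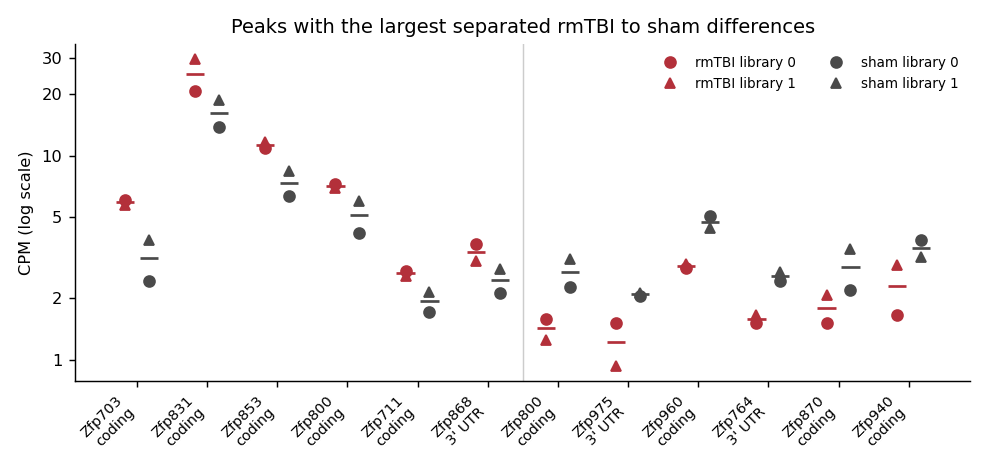
Level in CPM (log scale) at the 6 highest and the 6 lowest separated differences between rmTBI and sham among member peaks whose count was 20 or more in each library, 1 peak per gene and direction. Circles are libraries 0 and triangles libraries 1, rmTBI in red to the left of sham in grey, and bars mark the mean of each pair. The groups do not overlap at any of these peaks, because the peaks were chosen for that, and the fitted log2 fold changes are largest in size for Zfp800 (-0.95) and Zfp703 (0.88).

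The balance between coding and 3' UTR peaks was compared as 1 value per library, the log2 ratio of summed coding counts to summed 3' UTR counts over all member peaks. It was 2.20 and 1.92 in rmTBI libraries 0 and 1, and 2.17 and 1.903 in sham libraries 0 and 1. The sums behind it were 53242 and 118553 coding counts and 11595 and 31394 3' UTR counts in rmTBI libraries 0 and 1, and 56316 and 113441 coding counts and 12490 and 30330 3' UTR counts in sham libraries 0 and 1. The groups overlapped, and rmTBI minus sham was 0.02 (two-sided exact permutation test, p = 0.667, where 2 against 2 libraries cannot give less than 0.333). Within the libraries numbered 0 and 1 the difference was 0.03 and 0.01. Leaving out rmTBI library 0 turned it to -0.12 and leaving out sham library 1 to -0.11, since each then sets unequal numbers of libraries 0 and 1 against each other.

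The ratio was lower in both libraries numbered 1 than in both numbered 0, with a mean of 1.91 against 2.19 and a difference of -0.28 (two-sided exact permutation test, p = 0.333, the smallest this design can give). All other genes had the same order, with 1.61 and 1.31 in rmTBI libraries 0 and 1 and 1.59 and 1.33 in sham libraries 0 and 1. The libraries numbered 1 also had more counts, so that depth and number cannot be told apart.

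Between the libraries numbered 1 and those numbered 0, with both groups in each, most zinc finger peaks had positive values, whereas coding peaks of other genes had a median just below 0. In the test of number, 51 of the 474 member peaks were called, where 16.4% of all peaks were called. Of these, 38 peaks in 21 genes were higher in the libraries numbered 1 (8.02%, against 7.17% of all peaks) and 13 peaks in 9 genes were lower (2.74%, against 9.25% of all peaks). Among coding peaks, 24 members were higher (7.64%) and 7 were lower (2.23%), where 5.84% of all coding peaks were higher and 13.5% lower. Among 3' UTR peaks, 14 members were higher (9.46%) and 5 were lower (3.38%), near the 9.82% and 3.57% of all 3' UTR peaks. With rmTBI library 0, rmTBI library 1, sham library 0 or sham library 1 left out, 18, 16, 17 and 27 member peaks were called, of which 55.6%, 56.25%, 58.8% and 66.7% were higher. With library-size scaling, 84.6% of the called member peaks were higher, against 74.5% with TMM.

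The median log2 fold change of number 1 over number 0 was 0.23 for member coding peaks (0.28 within rmTBI and 0.15 within sham) and 0.40 for member 3' UTR peaks (0.44 and 0.40), against -0.07 and 0.16 for all other genes. The other Zfp genes had 0.23 and 0.39, close to the members. Both libraries numbered 1 lay above both numbered 0 at 132 member coding peaks (42.0%) and 79 member 3' UTR peaks (53.4%). For all other genes, 26.6% of coding and 38.0% of 3' UTR peaks did so. Over all member classes they lay below at 56 peaks (11.8%), against 29% of all peaks. Library-size scaling put the median of all peaks at 0.14 in this contrast, against 0.04 with TMM, and the values here are relative to the TMM scaling.

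**Figure D3:**
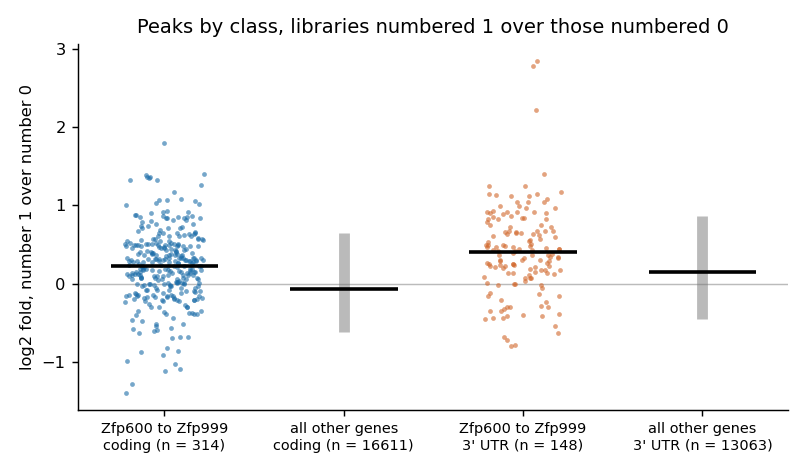
Log2 fold change of the libraries numbered 1 over those numbered 0 for each tested member peak (points) in coding sequence and in 3' UTRs, beside all other genes of the same class. Black bars are medians and grey bars run from the 10th to the 90th percentile. The medians are 0.23 and 0.40 for member coding and 3' UTR peaks, against -0.07 and 0.16 for all other genes.

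Length of the peak moved with this shift. Member coding peaks had a median of 0.19 under 300 bases (133 peaks), 0.33 from 300 to under 1000 bases (137 peaks), 0.03 from 1000 to under 5000 bases (28 peaks) and -0.41 at 5000 bases and over (16 peaks in 12 genes). Coding peaks of all other genes had 0.05, 0.17, -0.25 and -0.43 in the same length classes. Members were thus above all other genes in the 3 shorter classes and near them in the longest, where few members lie. Coding peaks of the other Zfp genes had 0.28, 0.32, -0.12 and -0.25, also above all other genes. Member 3' UTR peaks had 0.39, 0.47 and 0.25 in the 3 shorter classes (76, 57 and 13 peaks), against 0.05, 0.34 and 0.04 for all other genes, and the 2 longest, both of Zfp799, were at -0.41. The other Zfp genes had 0.24, 0.57 and 0.38 in the 3 shorter 3' UTR classes.

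**Figure D4:**
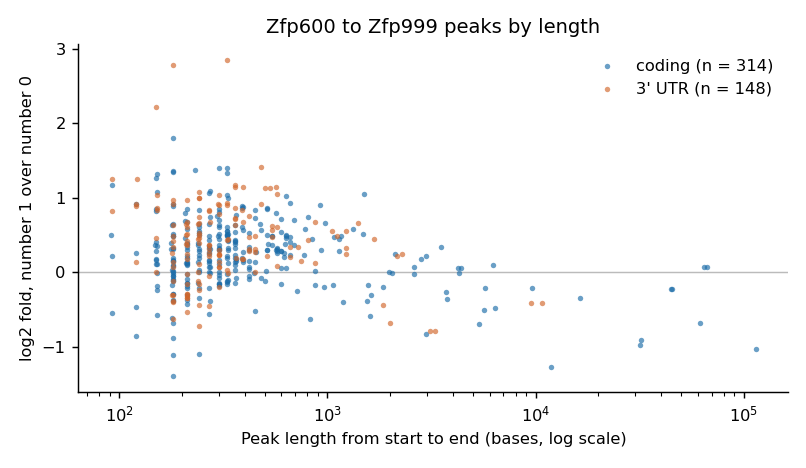
Log2 fold change of the libraries numbered 1 over those numbered 0 against the length of the peak from start to end (bases, log scale) for the tested member peaks, coding in blue and 3' UTR in orange. Most peaks under 1000 bases are above 0, and 13 of the 16 coding peaks of 5000 bases and over are below 0.

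Zfp830, known in mouse as Omcg1 and needed in early embryos, had the most-read 3' UTR peak that was called higher. Its peak of 532 bases on chromosome 11 (82765021 to 82765552) had 53.4 and 55.3 CPM in the rmTBI and sham libraries numbered 1, against 23.7 and 26.1 CPM in those numbered 0 (log2 1.13, SE 0.11, adjusted p = 0.0042, edgeR). The 3' UTR peak of Zfp940 had a log2 value of 1.05 (adjusted p = 0.0079, edgeR) and that of Zfp704 0.92 (adjusted p = 0.013, edgeR). The 3' UTR peak of Zfp746, known as PARIS, a repressor of the PGC-1alpha gene, had 0.92 and did not pass (adjusted p = 0.063, edgeR).

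Among coding peaks, that of Zfp770 had 19.2 and 19.8 CPM in the rmTBI and sham libraries numbered 1, against 11.4 and 9.05 CPM in those numbered 0 (log2 0.93, SE 0.16, adjusted p = 0.011, edgeR). Zfp668 and Zfp777 were called higher as well, each with a log2 value of 0.84, whereas Zfp760 (0.88) and Zfp865 (0.66) did not pass. Zfp646, which had 14 of its 15 peaks in coding sequence, had 5 coding rows called higher, with log2 values of 0.48 to 0.87.

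Coding peaks called lower in the libraries numbered 1 included long spans. Zfp605 had 11.7 and 12.7 CPM in the rmTBI and sham libraries numbered 1, against 29.4 and 29.7 CPM in those numbered 0 over a span of 11874 bases (log2 -1.28, SE 0.13, adjusted p = 0.0041, edgeR). Zfp618, whose human counterpart partners with UHRF2, a reader of 5-hydroxymethylcytosine, had 28.5 and 27.0 CPM in the rmTBI and sham libraries numbered 1, against 61.7 and 51.6 CPM in those numbered 0 over its span of 114388 bases (log2 -1.03, SE 0.13, adjusted p = 0.0057, edgeR). Zfp971 was called lower at a short peak, with 4.53 and 5.56 CPM in the rmTBI and sham libraries numbered 1, against 10.8 and 15.7 CPM in those numbered 0 at 181 bases of coding sequence (log2 -1.39, SE 0.23, adjusted p = 0.011, edgeR). Another coding peak of 181 bases, in Zfp873, had a log2 value of -1.11 and did not pass (adjusted p = 0.18, edgeR). In 3' UTRs, Zfp809, which in mouse embryonic stem cells recruits Trim28 to silence murine leukaemia virus, was lower at a peak of 3297 bases (log2 -0.78, SE 0.14, adjusted p = 0.013, edgeR).

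Within a gene, coding and 3' UTR peaks could be set against each other for 50 genes with a tested peak of each kind, taking the most-read of each. The 3' UTR peak had the higher value of number 1 over number 0 in 25 of them, and the median of coding minus 3' UTR was -0.01 (0.03 within rmTBI and 0.02 within sham). In the 34 genes where both peaks were under 1000 bases, 15 had the higher value in the 3' UTR and the median was 0.02. The difference between the classes over all member peaks, 0.23 against 0.40, did not appear in the medians within genes that have both. The genes with a peak of each kind are a subset of the members, and this was given no test.

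Some genes had their peaks far apart. Zfp827, whose human counterpart recruits the NuRD complex to telomeres, was lower over its coding span of 31971 bases on chromosome 8 (79028436 to 79060406), with 36.9 and 35.6 CPM in the rmTBI and sham libraries numbered 1, against 69.2 and 66.6 CPM in those numbered 0 (log2 -0.91, SE 0.10, adjusted p = 0.0050, edgeR). Its 3' UTR peak of 391 bases (79190261 to 79190651) was higher, with 10.8 and 11.6 CPM in the rmTBI and sham libraries numbered 1, against 5.003 and 5.133 CPM in those numbered 0 (log2 1.14, SE 0.17, adjusted p = 0.0087, edgeR). A shorter coding peak of Zfp827, of 332 bases at 79076071 to 79076402, had a log2 value of 0.43. Zfp740 differed within its 3' UTR, where a peak of 242 bases was lower (log2 -0.72) and 1 of 541 bases was higher (log2 0.57), both called. Zfp772 had a coding value of 1.33, which was called, and a 3' UTR value of 0.07, which was not. Zfp758 had values of 1.05 in coding sequence and -0.45 in the 3' UTR, neither of them called.

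**Figure D5:**
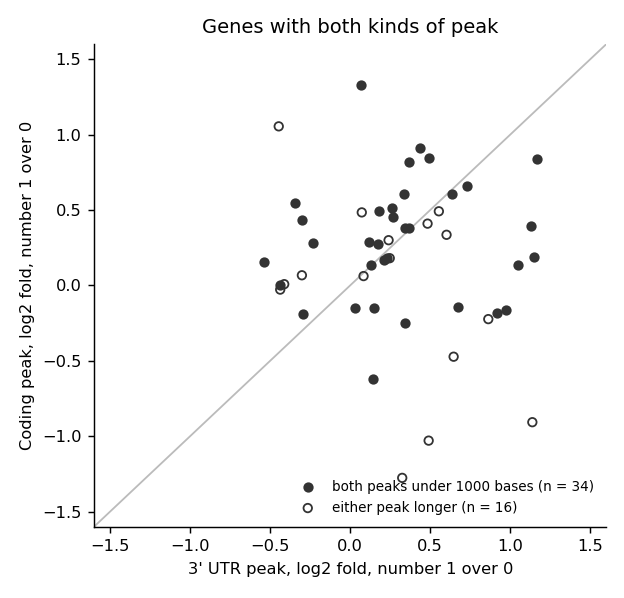
Log2 fold change of the libraries numbered 1 over those numbered 0 at the most-read coding peak (vertical axis) and the most-read 3' UTR peak (horizontal axis) of the 50 member genes with both. Filled points are the 34 genes with both peaks under 1000 bases, open points the 16 genes with a longer peak, and the line marks equal values. Points lie on both sides of the line, with 25 genes below it.

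For rmTBI against sham, the coding and 3' UTR peaks of these 50 genes had values of the same sign in 31 genes, and the median of coding minus 3' UTR was 0.02. These peaks share the abundance of their transcript, and the count is a description.

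The authors' deposited list of higher peaks held 11 member peaks of 8 genes (2.28% of the members, against 0.815% of all peaks), and their deposited list of lower peaks held 4 member peaks of 3 genes (0.830%, against 0.43% of all peaks). In the authors' deposited table the higher ones were peaks of Zfp703, Zfp704, Zfp710, Zfp777, Zfp846, Zfp937, Zfp951 and Zfp959, with log2 values of 1.58 to 4.73, and the lower ones were peaks of Zfp771, Zfp839 and Zfp995, with log2 values of -4.22 to -2.16. The smallest adjusted p among them in the authors' deposited table was 0.998. Read from the counts, the authors' deposited values follow the change from number 0 to number 1 in rmTBI over that in sham, and in all 11 higher peaks rmTBI library 0 lay below sham library 0. The median difference of rmTBI and sham at these peaks was -1.93 within number 0 and 0.43 within number 1, on the log2 scale. Most rest on few reads, with 9 of the 11 higher and 3 of the 4 lower peaks at 10 counts or fewer in a library numbered 0. At Zfp951, where 3 peaks are listed, a coding peak had 0 and 32 counts in rmTBI libraries 0 and 1 and 12 and 26 counts in sham libraries 0 and 1. The best-read of the listed peaks, a coding peak of Zfp937 of 330 bases, had 24 and 139 counts in rmTBI libraries 0 and 1 and 60 and 102 counts in sham libraries 0 and 1. A model with group, number and their interaction has no residual degrees of freedom in 4 libraries, so that this difference has no test here.

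The proteins that KRAB zinc fingers work with were followed as a list of 29 genes, of which 22 had a peak. Of their 109 tested peaks 0 were called for rmTBI against sham by edgeR. The most-read peaks of 17 genes had positive and of 5 negative values, with a median of 0.07. Among all other genes 52.6% of peaks were positive, a share counted by peak and not by gene. Setdb1, the histone H3 methyltransferase that Trim28 recruits, had 21.98 and 17.2 CPM in rmTBI libraries 0 and 1, and 21.2 and 18.2 CPM in sham libraries 0 and 1 at a coding peak of 2306 bases. No peak of Trim28 was analysed here. Between the numbers, 1 of the 109 peaks (0.917%) was called higher in the libraries numbered 1 (Morc3, log2 0.47) and 13 (11.9%) lower. Of all peaks, 7.17% were called higher and 9.25% lower. Most of these genes had their most-read peak in coding sequence, and of all coding peaks 5.84% were called higher and 13.5% lower. The peaks of the list called lower included those of Smarcad1 (log2 -1.07), Ehmt1 (-0.80), Pphln1 (-0.76) and Cbx1 (-0.64), in coding spans of 4262 bases or more.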

How the data were processed

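The 4 anti-m6A libraries of mouse cortex were grouped by their labels, 2 rmTBI and 2 sham. The authors deposited whole-number read counts per peak, not normalized, with peaks called per condition and stacked, per the file headers. STAR, DESeq2 and the build GRCm39 are listed per the submitters' processing notes. The peak caller, counter and strand setting were not given in the sources used here. Also deposited were a log2 fold change with p-values, raw and adjusted, from a test not named, and a peak length (other), per the file headers. Of 31971 peaks with a RefSeq gene, 98.3% fell in its GRCm38.p6 span (members 97.7%), so coordinates are read as GRCm38 positions.

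The counts as deposited went into edgeR 4.0.16 under R 4.3.3 (TMM, filterByExpr, quasi-likelihood F-test, Benjamini-Hochberg adjustment over 33415 peaks, called at an adjusted p under 0.05), on 2 residual degrees of freedom. SE is the size of the log2 fold change divided by the square root of F. The fit was run on simulated data, with changes larger than those of most members and only in well-read peaks. Its power at smaller changes or low counts was therefore not measured. Alternatives were DESeq2 1.42.0, other scalings and filters, label number as a block, and each library left out. Depth limits the precision, since the median member peak has 43 to 117.5 counts. Position used the strand of RefSeq, or of most peaks of the gene where RefSeq gave none.

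Named peaks are, by rule, the 8 most-read per class, the 6 highest and 6 lowest separated differences of rmTBI and sham and the 5 highest and 5 lowest of number per class, all differences with at least 20 counts in every library, the 8 most-read genes with both classes, and members of known role. Zfp831, Zfp697, Zfp646, Zfp740, Zfp772, Zfp758 and the second peaks of named genes were added after their values were seen. Members and lists were chosen with earlier results of these data known. Protein features and peak sequences were not used here.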

Additional observations from a re-analysis of the deposited data

Results flagged for a closer look

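The median difference of rmTBI minus sham over member coding peaks had opposite signs in the libraries numbered 0 and those numbered 1, at -0.0368 and 0.0486 on the log2 scale. With 1 library per group and number, the difference between these medians was not tested.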

How the results depend on the processing

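For rmTBI against sham, 0 member peaks were called under library-size and RLE scaling, without a filter, with at least 10 counts in every library, with each library left out and with DESeq2. The exception was the fit with label number as a replicate block, which called 19 member peaks of 7 genes (17 higher and 2 lower): 8 of Zfp831, 4 of Zfp697 with its long coding span (adjusted p = 3.5e-06, edgeR), 2 of Zfp703, 1 each of Zfp704, Zfp853 and Zfp956, and, lower, 2 of Zfp970. Among all peaks the block called 3553 (10.6%), against 29 without it, and library-size scaling called 2, the minimum of 10 counts 0 (855 at an unadjusted p under 0.05), DESeq2 134 and leaving out a library 82 to 122. The labels do not say that a number marks a shared animal or batch, and with 2 pairs the correlation of the number difference between rmTBI and sham (0.48 across 33415 peaks) does not settle it. Of the 12 named peaks, Zfp703 (log2 0.87, adjusted p = 0.0042), Zfp831 (0.63, 2.6e-06) and Zfp853 (0.60, 0.0054) passed with the block in edgeR. The choice of the 12 for groups that do not overlap fixes most of their direction, which is therefore no sign of stability. The median of member coding peaks ran from -0.16 to 0.12 with a library left out, and that of 3' UTR peaks from -0.16 to 0.22, with 0.0300 under the block and 0.0274 with at least 10 counts. Without a library, 16 to 27 member peaks were called between numbers, against 51, and with group added to the model 132. The median of number for coding peaks was 0.33 with library-size scaling, and for 3' UTR peaks 0.50 with that scaling, 0.29 with 1 peak per overlap cluster, 0.32 to 0.46 with a library left out and 0.44 for peaks under 1000 bases, an alternative chosen after seeing the data. The coding to 3' UTR ratio of rmTBI minus sham ran from -0.12 to 0.16 with a library left out, at -0.121 without rmTBI library 0 and -0.115 without sham library 1.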
